A study of Arabidopsis thaliana with 12 samples.

Results

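The 6 Arabidopsis libraries labelled homozygous for T-DNA knockouts of DYW2 or of NUWA were compared with the 6 libraries labelled heterozygous, with the mutant line as a covariate, and the genes that moved the same way in both lines in every library were then picked out. These 12 libraries are the whole series, in 4 groups of 3: dyw2 heterozygous, dyw2 homozygous, nuwa heterozygous and nuwa homozygous, where nuwa is the line with the insertion in the gene also called OTP100. Of 33602 gene models, 21213 passed a filter on low counts and were tested. A gene moved one way in both lines when, within each line, all 3 homozygous libraries lay above, or all 3 below, all 3 heterozygous ones in log2 CPM (CPM, counts scaled to library size), in the same direction in both lines, and 2463 of the 21213 did (11.6%).

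Each library held total RNA from flower bud, rosette and stem pooled, from plants grown on soil under long days to Boyes growth stage 5.10, sequenced after depletion of ribosomal RNA. The comparison group is heterozygous plants, which carry 1 insertion, and no wild-type library was used here. The number of alleles, the number of plants in a pool, how homozygous plants were obtained and where each insertion lies are not given in the sources used here. The series calls the 3 libraries of a group biological replicates, and p-values measure the spread between these libraries. The labels contradict themselves on the line, by title and by genotype field, for replicate 2 of dyw2 homozygous and replicate 3 of nuwa homozygous. Their zygosity is not in dispute, the titles were followed, and results that turn on them are given without them.

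DYW2 and NUWA are pentatricopeptide repeat (PPR) proteins, a large plant family that binds RNA inside mitochondria and plastids and takes part in editing, splicing, trimming and stabilising organelle transcripts. Editing changes chosen cytidines to uridines, and DYW2 is known to bring the DYW domain to PPR proteins that lack one. When plant mitochondria fail, nuclear genes for alternative respiration, chaperones and detoxification are known to be induced, in part by NAC transcription factors that bind a sequence called the mitochondrial dysfunction motif.

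The targeted genes were not lower in homozygous libraries. The DYW2 gene (AT2G15690, on chromosome 2, 6830995 to 6833777, minus strand, 1 exon) stood at 7.08, 5.57 and 6.66 CPM in dyw2 heterozygous libraries and at 10.3, 11.02 and 9.50 in dyw2 homozygous ones. In nuwa it stood at 5.70, 5.11 and 6.42 against 8.73, 12.6 and 14.2. DYW2 was thus higher in all 6 homozygous libraries than in all 6 heterozygous ones (log2 fold change 0.86 ± 0.14 SE, edgeR adjusted p = 0.00323). NUWA (AT3G49240, annotated as emb1796, chromosome 3, 18255961 to 18258203, plus strand, 1 exon) was at 1.55, 0.796 and 0.857 against 4.44, 3.63 and 5.01 CPM in dyw2, and at 0.660, 0.351 and 0.905 against 0.761, 1.34 and 1.26 in nuwa, where the groups overlap. Its pooled change was 1.44 ± 0.32 (edgeR adjusted p = 0.0109). Since the transcript levels do not check the labels, directions below are between libraries labelled homozygous and heterozygous. Library totals ran from 13329334 to 97804029 counts, and the 3 dyw2 homozygous libraries were the shallowest.

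In the pooled test 6672 genes were called (31.5%), 3404 higher (16.0% of those tested) and 3268 lower (15.4%) in the homozygous libraries at an adjusted p under 0.05 (edgeR quasi-likelihood test, Benjamini-Hochberg). Of the genes that moved one way in both lines, 1200 were higher (5.66%) and 1263 lower (5.95%), and 1174 (5.53%) and 1190 (5.61%) of these, 2364 in all (11.1%), were also called by the pooled test. In 1128 genes (5.32%) all 12 libraries were divided: in 676 (3.19%) all 6 homozygous libraries lay above all 6 heterozygous ones, and in 452 (2.13%) they lay below. Both criteria use the same counts, so that a one-way gene is called is no second line of evidence, and the values of the one-way genes below describe them.

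The lines contributed unequally. In a model of the 4 groups, 13340 genes were called in dyw2 alone (62.9%; 30.1% higher and 32.8% lower), 462 in nuwa alone (2.18%; 1.54% and 0.636%), and the change differed between lines in 8667 (40.9%; more positive in dyw2 in 19.2% and less in 21.7%). Homozygous and heterozygous libraries did not overlap in 15019 genes in dyw2 (70.8%), of which 7358 were higher (34.7%) and 7661 lower (36.1%), and in 4482 in nuwa (21.1%), of which 1791 were higher (8.44%) and 2691 lower (12.7%). The 1200 genes higher in both were 16.3% of the dyw2 and 67.0% of the nuwa list, and the 1263 lower in both were 16.5% and 46.9%. Another 482 genes were higher in dyw2 and lower in nuwa, and 291 the reverse, with no overlap in either line. Over the 21213 genes, the changes of both lines had Pearson's r = 0.33 and Spearman's rho = 0.28, a description across genes, which are not independent replicates.

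Sizes differed too. The 1174 called one-way higher genes had a median log2 fold change of 1.43 in dyw2 and 0.66 in nuwa, and the 1190 lower ones -1.57 and -0.69, where all tested genes had -0.05 and -0.02. Of the higher genes, 263 at least doubled in each line, and of the lower, 434 fell at least 2-fold. The change differed between lines in 601 of the higher genes, larger in dyw2 in 595 of them, and in 374 of the lower genes, larger in dyw2 in all 374. The median gene of the higher set stood 1.47, 1.36 and 1.43 log2 units above the heterozygous mean in the dyw2 homozygous libraries and 0.51, 0.68 and 0.69 above it in the nuwa ones. Every homozygous library lay well off its line's heterozygous mean, which the choice of these genes requires.

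**Figure D1:**
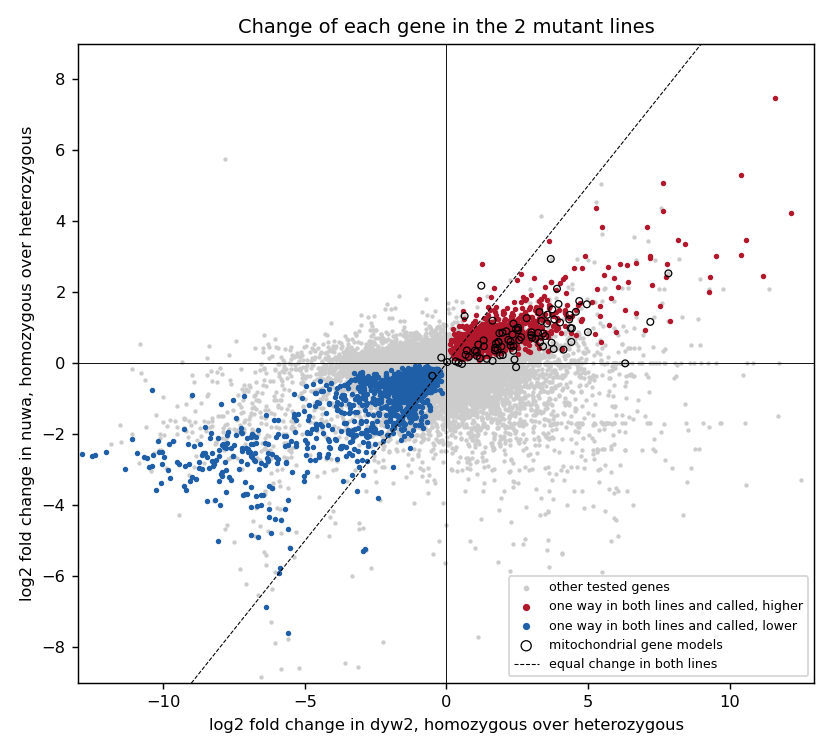
Log2 fold change of each of the 21213 tested genes, homozygous over heterozygous, in dyw2 (horizontal axis) and in nuwa (vertical axis). Red and blue points are the 1174 higher and 1190 lower genes that moved one way in both lines and were called, black rings are mitochondrial gene models, and the dashed line marks equal change. Most coloured points lie on the dyw2 side of the dashed line.

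Levels of flower bud markers moved with zygosity in 5 of the 6 homozygous libraries. All 12 listed flower bud markers, genes of floral organ identity, were tested, and none was at 0 in all 3 libraries of a group. Their summed level was 60.5 to 126.7 CPM in dyw2 heterozygous, 9.05 to 15.3 in dyw2 homozygous, 86.3 to 129.8 in nuwa heterozygous and 16.3 to 76.7 in nuwa homozygous libraries. The highest value of the last group belongs to nuwa homozygous replicate 3. The flower bud score, the mean log2 CPM of the 12 markers, was 1.59 to 2.86 in the 6 heterozygous libraries, -1.95 to -0.39 in 5 homozygous ones and 2.07 in that replicate. With it as a covariate the pooled test called 7 genes higher and 0 lower (edgeR, 2604 and 1502 at an unadjusted p under 0.05). Median log2 fold changes moved less in several groups described below. They went from 1.33 to 1.18 for mitochondrial chaperones and proteases, from 2.37 to 1.86 for the mitochondrial stress list, from 1.66 to 1.45 for mitochondrial gene models, from 0.57 to 0.65 for the PPR family and from -1.41 to -1.93 for small nuclear RNAs. Those of tissue and growth genes shrank or changed sign, from -3.27 to 1.04 for tapetum genes and from -0.82 to 0.31 for cell cycle genes. The flower bud markers went from -2.45 to 0.13, which carries no information, since they make up the score. Some other medians shrank too, from 0.33 to 0.12 for the nuclear respiratory chain and from 0.58 to 0.17 for glutathione transferases. That of jasmonate genes went from -0.45 to -0.02. None of the members of these groups was called with the covariate except 1 of the stress list. The score divides the libraries by zygosity in all but nuwa homozygous replicate 3, so the part of flower bud content in the calls cannot be told apart from that of zygosity. In pooled tissue fewer cells of a type and less RNA per cell cannot be told apart either. Without both disputed libraries 1788 genes were called higher and 1862 lower.

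**Figure D2:**
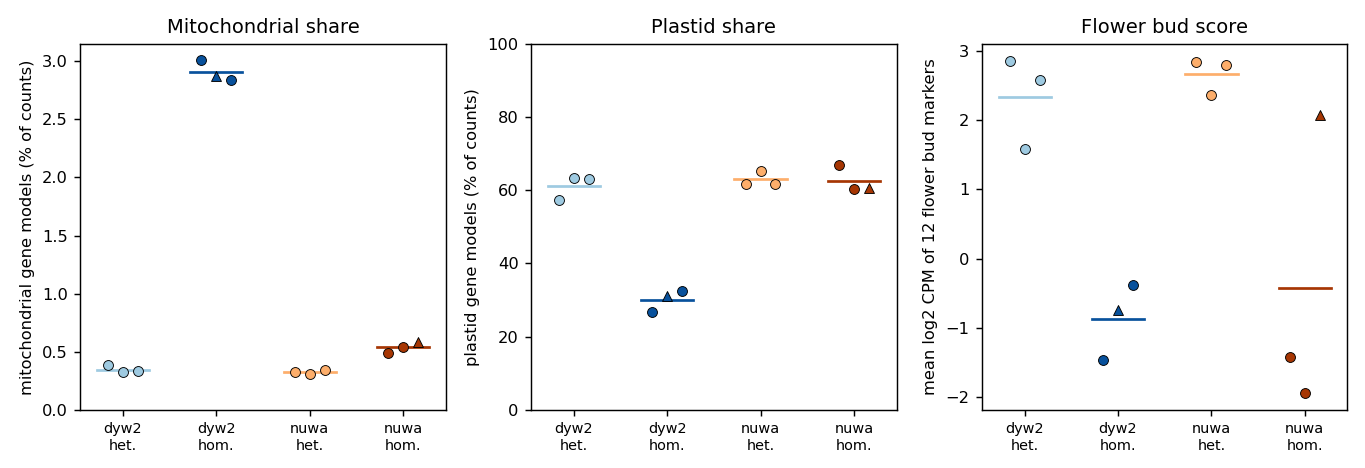
Share of counts from mitochondrial gene models (left), share from plastid gene models (middle), both in % of all counts, and flower bud score in mean log2 CPM (right) for each of the 12 libraries, with group means as lines (het., heterozygous; hom., homozygous). Triangles mark the 2 libraries whose labels disagree on the line. The mitochondrial share of all 6 homozygous libraries (0.490% or more) is above that of all 6 heterozygous ones (0.385% or less), and 1 triangle sits among the heterozygous flower bud scores.

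Genes of the mitochondrial stress response had the largest rises of the lists. Of 31 tested members of a list of genes known to be induced by mitochondrial inhibition or loss of mitochondrial function, 20 rose and 2 fell in the pooled test. In 13 the rise went one way in both lines, in 1 the fall. The list's median log2 fold change was 2.37, 3.49 in dyw2 and 0.80 in nuwa, against -0.06, -0.05 and -0.02 over all genes. AT5G51440 encodes a small heat shock protein of the HSP20 type, AT2G21640 is annotated as a marker of the oxidative stress response, and AOX1A encodes alternative oxidase, which passes electrons from ubiquinol to oxygen without the cytochrome pathway.

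AT5G51440 (chromosome 5, 20891163 to 20892416, plus strand, 2 exons) was at 0.487, 0.981 and 0.478 CPM in dyw2 heterozygous and at 32.9, 27.3 and 28.6 in dyw2 homozygous libraries. In nuwa it was at 0.352, 0.438 and 0.348 against 6.57, 3.42 and 6.45. No homozygous library came near a heterozygous one, and the pooled log2 fold change was 4.72 ± 0.36 (edgeR adjusted p = 0.000216), with 5.51 in dyw2 and 3.84 in nuwa. AT2G21640 (chromosome 2, 9254378 to 9255743, plus strand, 3 exons) rose from 0.600, 0.759 and 0.890 to 102, 127 and 103 CPM in dyw2. In nuwa the values were 1.03, 1.67 and 1.22 against 11.2, 8.82 and 12.3. The pooled change was 5.09 ± 0.77 (edgeR adjusted p = 0.00274), and the separation of the groups was again complete in each line. AOX1A (AT3G22370, chosen after its values were seen) was at 18.6, 23.9 and 26.3 against 231, 265 and 239 CPM in dyw2 and at 19.7, 25.9 and 22.2 against 62.6, 52.2 and 53.9 in nuwa (2.37 ± 0.36, edgeR adjusted p = 0.00281).

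The largest relative rise of the list was that of AT2G04050, which encodes an efflux transporter of the MATE family and was nearly silent in heterozygous libraries. It stood at 0.0187, 0.0370 and 0.165 against 105, 125 and 95.5 CPM in dyw2 and at 0.0440, 0.190 and 0.104 against 5.16, 5.30 and 4.23 in nuwa. Its log2 fold change was 8.12 ± 0.93 (edgeR adjusted p = 0.00111), and 7.52 without dyw2 heterozygous replicate 1 or 9.25 without nuwa heterozygous replicate 2. UGT74E2, a glucosyltransferase of the auxin indole-3-butyric acid, rose by 7.27 in dyw2 and 2.22 in nuwa, and AT2G41730, annotated as a calcium-binding site protein, by 6.43 and 2.3. Their pooled changes were 4.76 ± 0.95 and 4.38 ± 0.80, and 4.1 for UGT74E2 without dyw2 heterozygous replicate 2 and 5.0 for AT2G41730 without nuwa heterozygous replicate 2. UCP5, a mitochondrial uncoupling protein and dicarboxylate carrier, went the other way. It fell by 0.95 ± 0.18 on the log2 scale (edgeR adjusted p = 0.00562), with every homozygous library below every heterozygous one.

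The mitochondrial dysfunction motif was looked for in the window from 250 bases before to 50 after the start of each gene, as the letters CTTG, then any 5 bases, then CAAG or CACG, on either strand. It occurred in 251 of 21002 windows of tested genes (1.20%), in 39 of 1130 of the called one-way higher genes (3.45%), in 28 of the 245 that at least doubled in each line (11.4%) and in 15 of 1187 lower ones (1.26%). Among the stress list it was in 8 of 13 one-way higher members and in 5 of the 18 others. A match is a description of letters and not a measured binding site, and part of the list is known for this motif. The upstream sequences of 4 higher genes with a match follow, 250 bases ending at the base before the gene start, from the TAIR10.1 assembly in RefSeq and read 5′ to 3′ on the strand of the gene. They are shown as examples, picked after values were seen, and capitals mark the motif. AT5G51440, AT2G21640 and mtHsc70-1 belong to the stress and chaperone lists. AT4G25930 is a gene with a DUF295 domain that is described further on. The windows are chr5:20890913-20891162 (plus), chr2:9254128-9254377 (plus), chr4:17828193-17828442 (minus) and chr4:13167877-13168126 (plus).
AT5G51440: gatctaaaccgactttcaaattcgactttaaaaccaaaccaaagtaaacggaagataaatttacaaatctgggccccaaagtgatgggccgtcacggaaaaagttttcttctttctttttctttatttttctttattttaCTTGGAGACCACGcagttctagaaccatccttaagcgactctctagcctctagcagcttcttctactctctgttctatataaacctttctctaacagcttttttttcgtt
AT2G21640: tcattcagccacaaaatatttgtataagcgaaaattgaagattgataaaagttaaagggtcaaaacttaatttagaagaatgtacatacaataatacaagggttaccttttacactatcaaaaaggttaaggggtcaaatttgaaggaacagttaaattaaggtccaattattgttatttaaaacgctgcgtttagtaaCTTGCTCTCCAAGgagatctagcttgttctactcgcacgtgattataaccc
mtHsc70-1: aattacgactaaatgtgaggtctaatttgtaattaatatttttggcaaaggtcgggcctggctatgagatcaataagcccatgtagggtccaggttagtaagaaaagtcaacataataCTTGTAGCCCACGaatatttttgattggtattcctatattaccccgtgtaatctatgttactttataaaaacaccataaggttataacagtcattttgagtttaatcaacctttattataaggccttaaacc
AT4G25930: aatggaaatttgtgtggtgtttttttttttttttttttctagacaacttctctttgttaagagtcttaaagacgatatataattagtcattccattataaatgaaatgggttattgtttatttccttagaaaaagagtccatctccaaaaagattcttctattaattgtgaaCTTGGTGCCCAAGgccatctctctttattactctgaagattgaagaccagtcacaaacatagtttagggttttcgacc

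In these sequences the motif starts 110 bases before the gene start in AT5G51440, 51 in AT2G21640, 132 in mtHsc70-1 and 78 in AT4G25930. The other 3 motifs searched were counted in the same windows on both strands. The G-box CACGTG, a site of bZIP and bHLH factors, was in 8.52% of all windows, 6.20% of those of higher genes and 8.76% of those of lower genes. The site II element TGGGCC, common in genes of ribosomal and mitochondrial proteins, was in 18.3%, 26.1% and 12.5%. The telo-box AAACCCTA, common in genes of the translation machinery, was in 5.66% of all windows, in 190 of 1130 of the higher genes (16.8%) and in 3.88% of the lower ones. The telo-box and the site II element were thus more frequent in the whole higher set than among all genes. The dysfunction motif was concentrated in the genes with the larger changes.

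Chaperones and proteases of mitochondria rose as a group. Of 15 tested members 12 rose and none fell, 11 of them one way in both lines, and the median log2 fold change was 1.33, with 1.80 in dyw2 and 0.74 in nuwa. Both matrix Hsp70 proteins, which pull in and fold imported proteins, were among them. mtHsc70-1 (AT4G37910, chromosome 4, 17824777 to 17828192, minus strand) rose by 3.61 in dyw2 and 1.55 in nuwa, and MTHSC70-2 (AT5G09590) by 3.49 and 1.40. AR192 (AT4G26780), a GrpE-type co-chaperone that recharges Hsp70, stood at 9.40, 7.39 and 10.2 against 21.6, 20.6 and 19.4 CPM in dyw2 and at 9.70, 9.25 and 7.12 against 20.3, 18.4 and 15.4 in nuwa. Its change was of similar size in both lines (1.19 and 1.05), and 1.12 ± 0.12 pooled (edgeR adjusted p = 0.000766). LON1 (AT5G26860), an ATP-dependent protease that degrades damaged matrix proteins, was at 6.46, 4.998 and 6.15 against 59.9, 46.3 and 58.3 CPM in dyw2 and at 4.33, 4.89 and 5.41 against 10.1, 14.99 and 18.2 in nuwa (2.40 ± 0.31, edgeR adjusted p = 0.00156). All 6 homozygous libraries were above all 6 heterozygous ones for both AR192 and LON1.

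Import and respiratory chain genes moved less. Of 16 tested genes of protein import into mitochondria, 11 rose and none fell, 5 of them one way, with a median of 0.58. TIM13 and TIM10, small chaperones that escort proteins across the space between the membranes, rose by 0.69 ± 0.13 (edgeR adjusted p = 0.00577) and 0.81 ± 0.15 (edgeR adjusted p = 0.00524). Of 20 nuclear genes of the respiratory chain, 8 rose and 1 fell, and 2 went one way in both lines (a share near the 11.1% of all tested genes). Both encode subunits of complex I, the entry point of NADH electrons. AT5G11770, its 20 kDa subunit, rose by 0.54 ± 0.11 (edgeR adjusted p = 0.00891). CI51, its 51 kDa subunit, rose by 0.38 ± 0.10 (edgeR adjusted p = 0.0216) and was not called without dyw2 heterozygous replicate 3, dyw2 homozygous replicate 1 or dyw2 homozygous replicate 3.

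**Figure D3:**
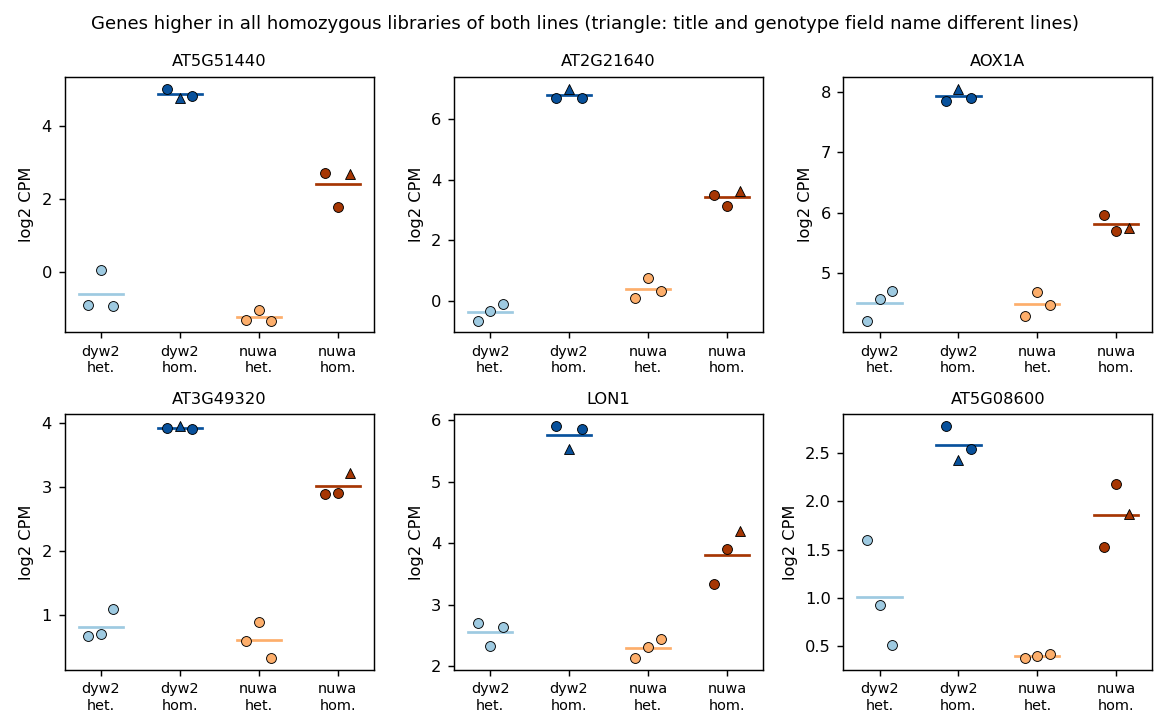
Log2 CPM in each of the 12 libraries for 6 genes that were higher in all homozygous libraries of both lines, with group means as lines (het., heterozygous; hom., homozygous). Triangles mark the 2 libraries whose labels disagree on the line. The gap is wider in dyw2 than in nuwa for AT5G51440, AT2G21640, AOX1A and LON1, and of about the same size for AT5G08600 (1.52 and 1.51).

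Many genes of organelle gene expression rose as well, and some did not. Of 9 tested polymerase and sigma factor genes, all 3 phage-type RNA polymerases of the organelles rose in both lines. The other 6, the nuclear-encoded sigma factors of the plastid's bacterial-type polymerase, all fell in dyw2, and none was called in nuwa or in the pooled test, so the list's median was -0.78 in dyw2 and 0.32 in nuwa. The average of both lines in the 4-group model called 4 of the 9 lower. AT5G15700, the polymerase found in both mitochondria and plastids, rose by 2.05 ± 0.25 (edgeR adjusted p = 0.00139), and MGP3 (AT1G68990), the mitochondrial one, by 1.5 ± 0.17 (edgeR adjusted p = 0.00121). SCA3 (AT2G24120), the plastid one, stood at 21.1, 13.2 and 13.5 against 41.9, 42.6 and 46.5 CPM in dyw2 and at 13.3, 12.3 and 12.7 against 27.4, 32.3 and 29.7 in nuwa. Its change was close in both lines (1.45 and 1.22), and 1.34 ± 0.13 pooled (edgeR adjusted p = 0.000441).

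Of 19 tested editing factors 11 rose and none fell, 7 of them one way, DYW2 included, and the list's median was 0.75. MORF1 and MORF4, small proteins that pair with PPR editing factors, rose by 1.90 ± 0.26 (edgeR adjusted p = 0.0021) and 2.24 ± 0.44 (edgeR adjusted p = 0.00652). Of 9 genes listed under mitochondrial intron splicing 5 rose and none fell, 3 of them one way. The list includes HCF152 and PGR3, whose part in mitochondrial splicing was not checked. PMH1 and PMH2, RNA helicases of mitochondria, rose by 2.02 ± 0.39 and 1.05 ± 0.20, and AT5G46920, a maturase of mitochondrial introns, by 0.85 ± 0.10 (edgeR adjusted p = 0.00139). AT5G14580, a polynucleotide phosphorylase that trims and degrades mitochondrial RNA, was at 1.80, 1.04 and 0.808 against 23.3, 21.8 and 22.2 CPM in dyw2 and at 0.748, 0.818 and 1.25 against 1.95, 3.29 and 5.95 in nuwa (3.12 ± 0.47, edgeR adjusted p = 0.00257). In every nuwa homozygous library it was above all 6 heterozygous ones, though by far less than in dyw2.

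The PPR family as a whole, taken by its annotation and chosen after values had been seen, held 243 tested genes, of which 111 rose and 1 fell, 59 of them one way in both lines and higher. Its median log2 fold change was 0.57, with 0.80 in dyw2 and 0.31 in nuwa. Without both disputed libraries 73 rose, without dyw2 heterozygous replicate 3 it was 71, and without dyw2 homozygous replicate 3 it was 73. EMB2217 (AT1G79490) rose by 1.32 ± 0.17 (edgeR adjusted p = 0.00163) and AT1G08610 by 1.14 ± 0.15 (edgeR adjusted p = 0.00158), each with all 6 homozygous libraries above all 6 heterozygous ones. In the family of mitochondrial transcription termination factors, whose members act in both organelles, 8 of 30 rose and 2 fell. Of these, 4 were higher one way in both lines (13.3%) and none lower. Over all tested genes the share was 5.53% for higher genes and 11.1% for either direction. The family's median log2 fold change was 0.18, with 0.09 in dyw2 and 0.17 in nuwa. AT1G78930 rose by 2.31 in dyw2 and 1.23 in nuwa. BSM (AT4G02990), a plastid member needed for splicing there, was at 22.1, 22.0 and 21.6 against 23.3, 26.8 and 29.0 CPM in dyw2 and at 21.6, 22.3 and 20.4 against 38.9, 40.6 and 35.6 in nuwa. It is one of the 6 called one-way higher genes for which the test of the difference between lines called a larger rise in nuwa (0.84) than in dyw2 (0.27).

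RNA of the mitochondrial genome rose broadly. Of 146 mitochondrial gene models 82 were tested, 71 rose and none fell, 44 of them one way in both lines, with medians of 2.43 in dyw2 and 0.66 in nuwa. As a share of all counts, mitochondrial models made up 0.385%, 0.322% and 0.330% in dyw2 heterozygous and 3.01%, 2.87% and 2.84% in dyw2 homozygous libraries, and 0.324%, 0.306% and 0.344% against 0.490%, 0.538% and 0.587% in nuwa. All 6 homozygous shares were above all 6 heterozygous ones, with a mean difference of 1.39 percentage points (exact two-sided permutation test within lines, p = 0.005, the smallest that its 400 arrangements can give). The plastid share was 57.2% to 63.5% in dyw2 heterozygous and 26.6% to 32.5% in dyw2 homozygous libraries, and 61.8% to 65.3% against 60.4% to 66.9% in nuwa, where the groups overlap. Its mean difference of -15.8 points (exact two-sided permutation test, p = 0.05) came from dyw2. Since shares sum to a whole, the mitochondrial share also moves with the plastid one.

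Among mitochondrial models with the widest one-way rise, ATMG01240 was at 0.487, 0.444 and 0.379 against 11.6, 10.9 and 11.5 CPM in dyw2 and at 0.242, 0.292 and 0.366 against 0.666, 0.905 and 1.498 in nuwa (3.33 ± 0.52, edgeR adjusted p = 0.00299). ATMG00630 rose by 3.56 ± 0.58 (edgeR adjusted p = 0.00338). ATMG01110, annotated as a Mitovirus RNA-dependent RNA polymerase, rose by 2.73 ± 0.48 (edgeR adjusted p = 0.00439). These 3 models had low counts in heterozygous libraries, at most 0.487 CPM in each. Chromosome 2 carries a nuclear copy of the mitochondrial genome, and of 101 tested models with IDs beginning AT2G07, the region that holds it, 82 rose and 2 fell. Reads with equal best and second scores had been removed, so how reads fell between the mitochondrial genome and this copy is uncertain.

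Genes of ribosome assembly in the nucleolus, also taken by annotation after values had been seen, rose in 22 and fell in 5 of 49 tested members, with 19 one way and higher and 1 one way and lower. The family's median log2 fold change was 0.22, with 0.44 in dyw2 and 0.09 in nuwa, so the members named below rose more than its median member. AT5G08600 (chromosome 5, 2786177 to 2790241, plus strand, 12 exons), annotated as a protein of the U3 complex that processes ribosomal RNA, was at 3.00, 1.85 and 1.39 against 6.83, 5.33 and 5.76 CPM in dyw2 and at 1.25, 1.27 and 1.29 against 2.83, 4.49 and 3.62 in nuwa. It rose by 1.52 in dyw2 and 1.51 in nuwa, with no overlap within a line, and by 1.52 ± 0.19 pooled (edgeR adjusted p = 0.00139). AT3G21300, an RNA methyltransferase, rose by 1.48 and 1.37, and PDE340 (AT5G08610, chromosome 5, 2790243 to 2794219, plus strand) by 1.25 and 1.12. These genes are given for their changes of similar size in both lines and not as members of this family. PDE340 begins next to the end of AT5G08600 on the same strand. EMB2788, annotated with a 60S ribosome biogenesis domain, rose by 3.22 in dyw2 and 1.41 in nuwa.

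The 7 genes that stayed called when the flower bud score entered the fit were AT3G49320, AT5G51440, AT1G48570, AT5G54450, AT4G25930, AT3G54530 and AT5G35965. AT3G49320 (chromosome 3, 18288172 to 18290672, minus strand, 7 exons), annotated as a metal-dependent protein hydrolase, had the tightest values. It stood at 1.55, 1.59 and 2.09 against 15.04, 15.4 and 14.9 CPM in dyw2 and at 1.47, 1.83 and 1.22 against 7.40, 7.44 and 9.28 in nuwa. All homozygous libraries were several-fold above all heterozygous ones, and the pooled log2 fold change of 2.76 ± 0.17 (edgeR adjusted p = 5.08e-05) was 2.94 with the covariate (edgeR adjusted p = 0.008). AT1G48570, annotated as a Ran-binding zinc finger protein, was at 10.04, 6.96 and 10.01 against 31.0, 30.4 and 29.9 CPM in dyw2 and at 6.73, 5.99 and 5.95 against 13.1, 19.6 and 23.8 in nuwa (1.68 ± 0.15, edgeR adjusted p = 0.000336). AT5G35965, an uncharacterized protein at no more than 0.513 CPM in any library, rose by 2.42 ± 0.40 (edgeR adjusted p = 0.00341), with 2.48 in dyw2 and 2.36 in nuwa.

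The other 3 were all but silent in heterozygous libraries. AT5G54450 (chromosome 5, 22108273 to 22109379, minus strand, 1 exon), a hypothetical protein with a DUF295 domain, had 0 counts in all 6 heterozygous libraries. It stood at 6.46, 9.74 and 8.62 CPM in dyw2 homozygous and at 0.214, 0.302 and 0.880 in nuwa homozygous libraries, at least 479-fold and at least 27.6-fold higher than a floor of 3 counts over the heterozygous group. AT4G25930 (chromosome 4, 13168127 to 13169393, plus strand, 3 exons), another DUF295 gene, had 0 counts in dyw2 heterozygous libraries and 16.0, 10.7 and 10.1 CPM in homozygous ones, at least 669-fold higher. In nuwa its only heterozygous reads gave 0.0146 CPM, against 0.0714, 0.0670 and 0.309, a ratio of 27.1 (exact 95% counting interval 4.28 to 1128). AT3G54530, an uncharacterized protein, was at 3.13, 2.88 and 2.67 CPM in dyw2 homozygous libraries, a ratio of 242.5 to heterozygous ones (66.6 to 2011), and at least 5.01-fold above the floor in nuwa. Floors and intervals pool the reads of a group and cover counting error only. The other DUF295 genes were not examined as a family.

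Among lower genes, those of flower and pollen came first in size. Of the 12 flower bud markers 10 fell and none rose, 6 of them one way in both lines, with a median log2 fold change of -2.45. The count was 3 or 4 without replicate 1 or 3 of dyw2 heterozygous or any 1 of the dyw2 homozygous libraries. Without nuwa homozygous replicate 3 all 12 fell, with a median of -3.81. SEP3 and AP3, MADS-box factors that specify petals and stamens, show how the libraries divide. SEP3 was at 26.6, 11.01 and 21.9 against 0.841, 0.652 and 1.001 CPM in dyw2 and at 25.3, 17.3 and 25.6 against 1.43, 0.939 and 16.3 in nuwa. The value of 16.3 is that of nuwa homozygous replicate 3, just under the lowest nuwa heterozygous library. The pooled change was -3.13 ± 0.78 (edgeR adjusted p = 0.0157), and -4.43 without that library. AP3 was at 13.7, 3.11 and 11.4 against 0.336, 0.731 and 0.455 CPM in dyw2 and at 13.6, 10.1 and 13.2 against 0.0238, 0.0670 and 7.85 in nuwa (-3.10 ± 0.97, edgeR adjusted p = 0.0333). It was -5.16 without nuwa homozygous replicate 3, and it was not called in 5 of the 12 fits that left out 1 library, those without dyw2 heterozygous replicate 1 or 3 or any dyw2 homozygous replicate. AT5G15800, the gene of the floral factor SEP1, fell by 2.44 ± 0.47 (edgeR adjusted p = 0.00599) with all 6 homozygous libraries below all 6 heterozygous ones.

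Anther and pollen genes followed the same pattern of libraries. The summed level of the 5 late pollen markers was 4.74 to 40.8 CPM in dyw2 heterozygous, 0 to 0.119 in dyw2 homozygous, 18.9 to 33.2 in nuwa heterozygous and 0.0714 to 16.2 in nuwa homozygous libraries, the last value again from replicate 3. VGD1, PPME1 and DAF1 were at 0 in all 3 dyw2 homozygous libraries. Of the 5 markers 4 fell, 3 of them one way. PPME1, a pectin methylesterase of pollen tubes, was at 13.8, 1.65 and 2.11 against 0, 0 and 0 CPM in dyw2 and at 8.21, 7.41 and 8.63 against 0, 0.0335 and 5.33 in nuwa. ATA27, an anther-specific glycosyl hydrolase, was at 83.1, 9.18 and 50.8 against 0.0336, 0.0395 and 0 in dyw2 and at 86.5, 38.5 and 63.5 against 0.0238, 0.0335 and 29.9 in nuwa. Both lay just under the threshold (edgeR adjusted p = 0.0499 and 0.0497, log2 fold changes -3.89 and -5.18). Neither was stable to leaving out 1 library. PPME1 was not called in 9 of 12 such fits and ATA27 in 8, and without nuwa homozygous replicate 3 they were -9.70 and -10.8. PPME1 was also -3.27 without dyw2 heterozygous replicate 1, and ATA27 was between -4.44 and -4.39 without any 1 of the dyw2 homozygous libraries. Of 11 tested tapetum and pollen wall genes 4 fell. Without nuwa homozygous replicate 3 it was 11 of the 13 then tested, without nuwa heterozygous replicate 2 it was 8 of 12, and without dyw2 heterozygous replicate 1 or 3 it was 1. The count was 2 without nuwa heterozygous replicate 1 or 3 or any 1 of the dyw2 homozygous libraries. For the 5 late pollen markers it was 1 or 2 without 1 of the dyw2 homozygous libraries.

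**Figure D4:**
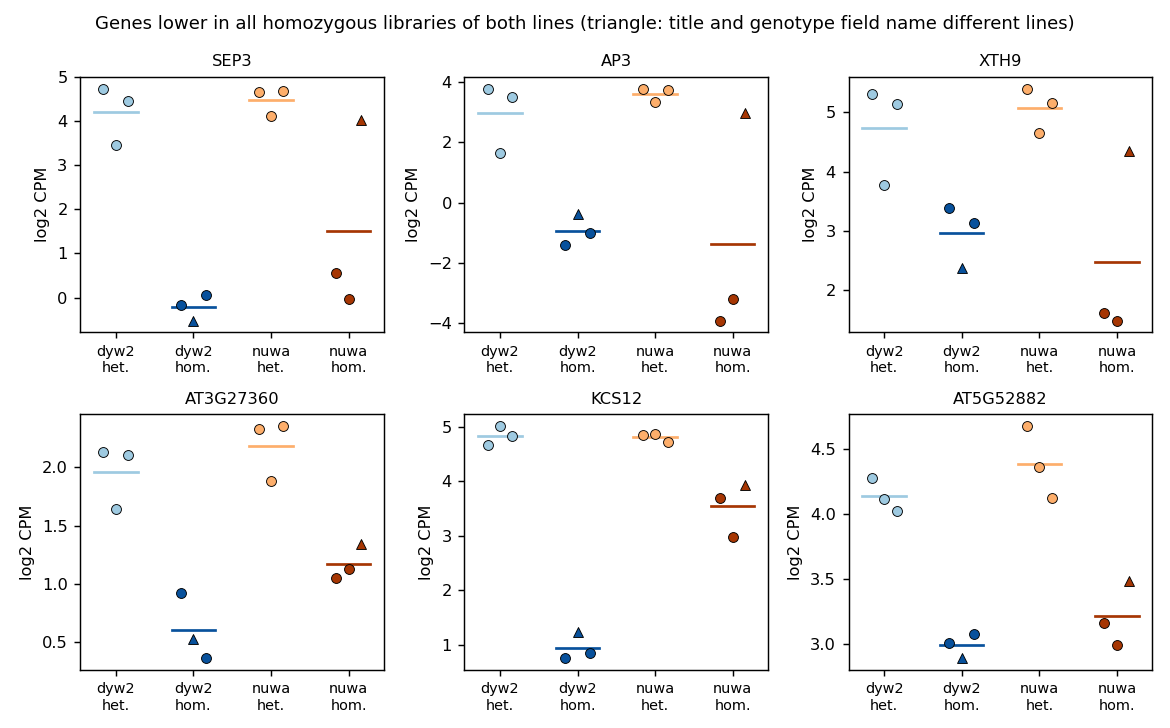
Log2 CPM in each of the 12 libraries for 6 genes that were lower in all homozygous libraries of both lines, with group means as lines (het., heterozygous; hom., homozygous). Triangles mark the 2 libraries whose labels disagree on the line. For SEP3, AP3 and XTH9 the triangle of nuwa homozygous lies close to the heterozygous libraries, and for AT5G52882 it lies with the other homozygous ones.

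Cell wall, wax, chromatin and small nuclear RNA genes also fell. These families were taken by annotation after values had been seen. With the flower bud score in the fit, the median log2 fold change went from -1.49 to -0.96 for xyloglucan endotransglucosylases. It went from -1.20 to -0.58 for 3-ketoacyl-CoA synthases, from -0.77 to -0.59 for histones and from -1.41 to -1.93 for small nuclear RNAs. No member was called in that fit. The score nearly follows zygosity, so the part of flower bud content in these results was not tested. Of 21 xyloglucan endotransglucosylase genes, which cut and rejoin wall polymers in growing cells, 11 fell and none rose, 7 of them one way, and 6 or 7 fell without dyw2 heterozygous replicate 3 or any 1 of the dyw2 homozygous libraries. XTH16 fell by 1.73 ± 0.36 (edgeR adjusted p = 0.00824). XTH9 fell by 1.92 ± 0.49 (edgeR adjusted p = 0.017), and its value without nuwa homozygous replicate 3 was -2.58. Of 19 genes of 3-ketoacyl-CoA synthases, which lengthen fatty acids for waxes and cutin, 13 fell and none rose, 5 of them one way, and 5 or 6 fell without dyw2 heterozygous replicate 1 or 3 or any 1 of the dyw2 homozygous libraries. KCS12 (AT2G28630) was at 25.2, 32.2 and 28.2 against 1.65, 2.31 and 1.76 CPM in dyw2 and at 28.6, 29.0 and 26.2 against 12.9, 7.88 and 15.3 in nuwa. It fell by 2.51 ± 0.47 (edgeR adjusted p = 0.00548), and nuwa homozygous replicate 3 was well below every heterozygous library. KCS2 fell by 1.20 ± 0.27 (edgeR adjusted p = 0.0112), with -1.26 in dyw2 and -1.14 in nuwa.

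Most histone genes fell. Of 31 tested members of the histone superfamily 25 fell and none rose, 21 of them one way, with medians of -0.77 pooled, -1.05 in dyw2 and -0.50 in nuwa. AT3G27360, a histone H3 gene, was at 4.35, 3.07 and 4.27 against 1.85, 1.40 and 1.24 CPM in dyw2 and at 4.97, 3.64 and 5.07 against 2.02, 2.15 and 2.50 in nuwa. All 6 homozygous libraries were below all 6 heterozygous ones (-1.21 ± 0.16, edgeR adjusted p = 0.00169). AT5G10400, another H3 gene, fell by 1.13 ± 0.18 (edgeR adjusted p = 0.00338). Their coding sequences are nearly the same as those of other H3 genes, and reads with equal scores had been removed, so the level of each is uncertain. Of 16 genes of the cell cycle and DNA damage response 2 rose and 5 fell, 1 in each direction one way, with medians of -0.82 pooled, -0.50 in dyw2 and -0.90 in nuwa. Between 1 and 7 fell when 1 library was left out, the fewest without dyw2 homozygous replicate 3. SIM, an inhibitor of cyclin-dependent kinases, fell by 0.71 ± 0.20 (edgeR adjusted p = 0.0222) and was not called without replicate 1 or 3 of dyw2 homozygous or replicate 3 of dyw2 heterozygous. PARP2, a poly(ADP-ribose) polymerase, rose by 1.95 ± 0.43 (edgeR adjusted p = 0.0106), with 3.15 in dyw2 and 0.68 in nuwa.

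Of 10 tested small nuclear RNA genes 9 fell and none rose, 8 of them one way, with a median of -1.41, close in both lines (-1.35 and -1.57). U12 (AT1G61275), of the minor spliceosome, was at 5.81, 5.18 and 7.40 against 1.88, 2.67 and 2.64 CPM in dyw2 and at 27.1, 13.1 and 12.1 against 8.35, 6.71 and 4.26 in nuwa (-1.39 ± 0.23, edgeR adjusted p = 0.00358). The nuwa homozygous libraries reached the level of dyw2 heterozygous ones, so the groups separate within lines and not across them. U1.5 fell by 2.03 ± 0.33 (edgeR adjusted p = 0.00337). These RNAs are short and have near-identical copies, so their counts are uncertain. The most evenly sized fall with complete separation of the libraries was that of AT5G52882 (chromosome 5, 21433859 to 21439133, minus strand, 13 exons), annotated as a P-loop nucleoside triphosphate hydrolase. It was at 19.3, 17.3 and 16.2 against 7.97, 7.37 and 8.40 CPM in dyw2 and at 25.5, 20.5 and 17.3 against 8.87, 7.91 and 11.1 in nuwa. It fell by 1.16 in dyw2 and 1.18 in nuwa, and by 1.17 ± 0.12 pooled (edgeR adjusted p = 0.000676).

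Other lists had few members that moved one way. Over all tested genes 16.0% rose and 15.4% fell in the pooled test. Counts near these shares, here and in the lists below, do not set a list apart in the pooled test. They do not describe the lines singly, since a difference between lines enters the spread of that test. Of 39 tested nuclear photosynthesis genes 7 fell and none rose in the pooled test, and none went one way. The list's median was -2.75 in dyw2 and 0.02 in nuwa. RBCS1A, the small subunit of Rubisco, changed by -3.22 in dyw2 and 0.15 in nuwa and was not called. The pooled count of 7 became 0 without nuwa homozygous replicate 3 or any 1 of the 6 dyw2 libraries. It became 23, 32 and 24 without nuwa heterozygous replicates 1, 2 and 3, and 27 without nuwa homozygous replicate 1. Of 24 nuclear genes of the plastid ribosome 2 fell, none one way, with medians of -2.39 and 0.12, and the count ran from 0 to 23 when 1 library was left out. Of 36 glutathione transferase genes 10 rose and 3 fell, of 10 cytosolic heat shock genes 6 rose, and of 15 salicylate and defence genes 2 rose, none of these one way. The count of rising glutathione transferases was 1 without dyw2 heterozygous replicate 2 or 3, 2 without replicate 1, 5 without nuwa heterozygous replicate 3 or any 1 of the dyw2 homozygous libraries, and 17 without nuwa heterozygous replicate 2. The falling ones numbered 0 to 6 in these fits. Of 17 flavonoid and anthocyanin genes 7 rose and 3 fell, with 2 of the rises and 1 of the falls one way. The list's median was 0.32, and in dyw2 alone 9 rose and 5 fell. AT1G56650 (production of anthocyanin pigment 1), the MYB activator of anthocyanin genes, rose by 3.01 ± 0.48 (edgeR adjusted p = 0.00321), and AT4G14090, a glucosyltransferase of anthocyanins, by 3.81 ± 0.63 (edgeR adjusted p = 0.00345), each with all 6 homozygous libraries highest.

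Of 12 cold and drought genes 5 fell and none rose, and 1 fell without any 1 of the dyw2 homozygous libraries and 3 without dyw2 heterozygous replicate 1. KIN1, a cold-induced protein, was at 12.2, 1.69 and 12.6 against 0, 0.0592 and 0.0303 CPM in dyw2 and at 14.1, 9.06 and 11.7 against 0.285, 0.201 and 6.11 in nuwa. Its fall of -4.06 ± 1.13 (edgeR adjusted p = 0.0228) was -6.44 without nuwa homozygous replicate 3 and was not called without any 1 of the dyw2 homozygous replicates. Of 12 senescence and sugar starvation genes 1 rose and 2 fell in the pooled test. In dyw2 8 rose and 2 fell, with a median of 1.54, and in nuwa none rose and 4 fell, with a median of -1.18. The members that went one way both fell. NAP, a NAC factor of leaf senescence, and DIN10, a raffinose synthase-like protein induced in the dark, fell by 0.97 ± 0.23 (edgeR adjusted p = 0.0133) and 0.96 ± 0.19 (edgeR adjusted p = 0.00712). Of 15 jasmonate genes 1 rose and 3 fell, of 23 genes of chlorophyll and heme synthesis 2 fell, and of 11 stem secondary wall genes 3 fell, in each case with 1 of the falls one way. Of 97 tested plastid gene models 16 fell and none rose in the pooled test, 2 of them one way, a share of falls near the 15.4% of all tested genes. In dyw2 alone 82 of the 97 fell, where 32.8% of all tested genes did, and in nuwa none was called. The medians were -2.14 in dyw2 and 0.07 in nuwa. DESeq2 called 61 lower, and the average of both lines in the 4-group model 72. The pooled count of 16 became 1 without dyw2 heterozygous replicate 1 or 3 or any 1 of the dyw2 homozygous libraries. It was 3 without dyw2 heterozygous replicate 2, 9 and 10 without nuwa homozygous replicates 2 and 3, and 64 without replicate 1. Without nuwa heterozygous replicates 1, 2 and 3 it was 28, 45 and 41.

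**Figure D5:**
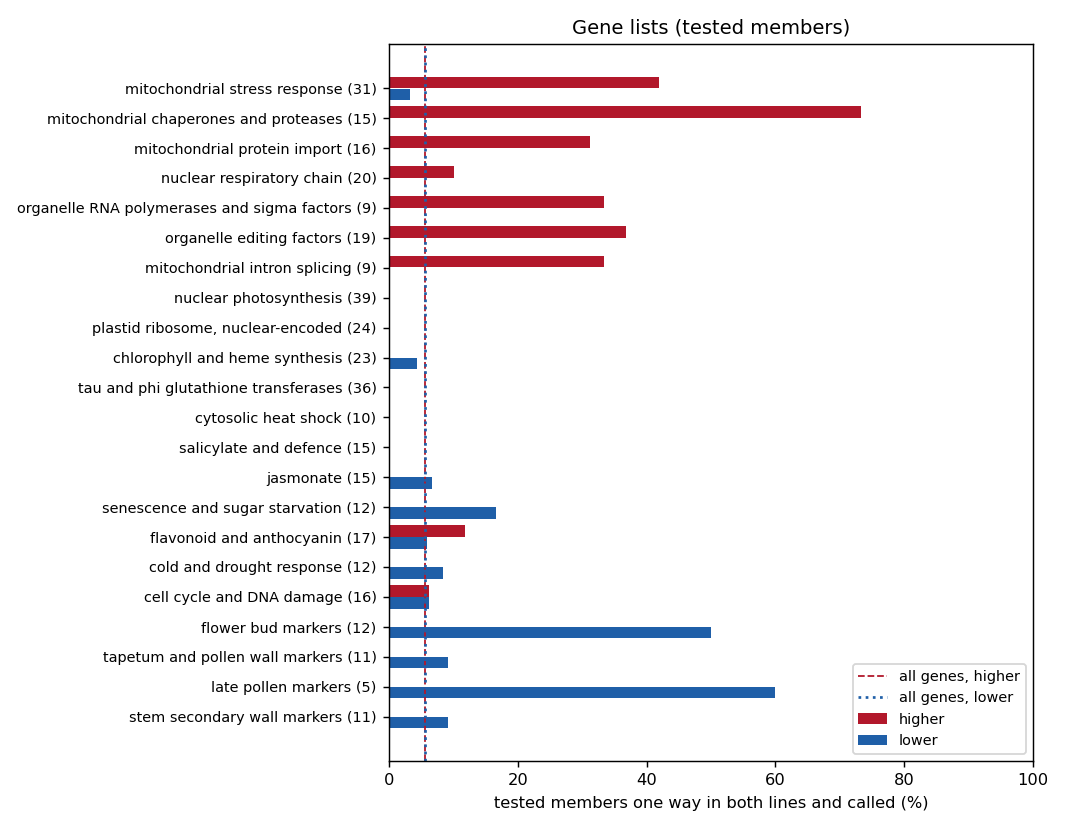
Share of each gene list's tested members (number in brackets) that moved one way in both lines and were called, higher in red and lower in blue. The dashed and dotted lines give the same share over all tested genes (5.53% and 5.61%). Mitochondrial chaperones and proteases and the mitochondrial stress list have the longest red bars, and the late pollen and flower bud markers the longest blue bars.

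Some genes changed in opposite directions. Of the genes called in each line, 293 were higher in both and 66 lower in both, while 30 were higher in dyw2 and lower in nuwa and 13 the reverse. CDEF1, a cutin-degrading GDSL lipase, had log2 fold changes of 5.49 in dyw2 and -5.87 in nuwa. It was at 0.243, 0.0185 and 0.148 against 3.83, 10.7 and 4.1 CPM in dyw2 and at 2.64, 0.643 and 0.331 against 0, 0.0335 and 0.0238 in nuwa. GLYI4, of the glyoxalase I family, changed by 5.92 and -4.35, GOX3, a glycolate oxidase, by 5.94 and -3.65, AT1G60740, a thioredoxin superfamily protein, by 3.62 and -5.75, and AT2G33830, of the dormancy and auxin associated family, by 2.52 and -3.38. None of these 5 was called in the pooled test, where both lines cancel. All 5 have low levels in nuwa homozygous libraries, at most 0.856 CPM.

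The edge of the one-way rule is fine. AT4G08520 and AT4G27640 were just inside, with gaps between the nuwa groups of 0.0001 and 0.0003 log2 CPM. MIA40, an import factor of the space between the mitochondrial membranes, was just outside, with an overlap of 0.0003 in nuwa, and so was AT5G46160 with 0.0003 in dyw2.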

How the data were processed

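Total RNA libraries were made with a stranded kit after ribosomal depletion, per the labels' protocols. The authors deposited raw counts, whole numbers of reads for each gene model, and had dropped reads with equal best and second alignment scores, per the file headers. TopHat2, Bowtie2 and TAIR10 appear in the submitters' processing notes. Overlapping genes were not separated, since use of the strand in counting is not stated. No replicate pair matched within sampling noise (chi-square per degree of freedom of at least 17.3).

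From these counts, edgeR 4.0.16 (R 4.3.3) was run with TMM scaling, filterByExpr (minimum count 10, minimum total 15), the quasi-likelihood F-test with line and zygosity as terms (9 residual degrees of freedom) and Benjamini-Hochberg adjustment at 0.05. A model of the 4 groups (8 residual degrees of freedom) gave the changes within lines and their difference. A difference between lines enters the spread of the pooled test. CPM used TMM library sizes, and log2 CPM for the one-way rule a prior count of 2. The edgeR step was tested on simulated data. Shares of counts were compared by exact permutation within lines (scipy 1.17.1). Names, positions and promoters came from TAIR10.1, which matched 32835 of 33602 models, and positions are those of TAIR10.1. Organelle models carry no type there, so ribosomal and transfer RNA models could not be left out of their shares.

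Named genes were the targeted genes, the 10 per direction with the largest smaller-of-both-lines change among called one-way genes with a mean log2 CPM of at least 1, the 5 per direction with the most even changes, the 5 most opposite ones, and up to 4 called one-way members of each list, or 2 members where there was none. Not all of them are described. Families by annotation, AOX1A, genes called with the flower bud covariate and members of the small nuclear RNA class were added after values were seen. The members and lists were chosen with earlier results of these data known. Alternatives were DESeq2 1.42.0 and its size factors, other filters, nuclear genes only, thinning to the shallowest library, the line of the genotype field, libraries left out, a replicate block, the 4-group average and a flower bud covariate.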

Additional observations from a re-analysis of the deposited data

Results flagged for a closer look

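The change differed between the lines in 8667 of 21213 genes, and in 975 of the called one-way genes (edgeR, difference of the changes in the 4-group model). Below, each value is the log2 fold change in dyw2 minus that in nuwa, and each difference was called by that test. With lines taken from the genotype field, which exchanges 1 homozygous library between them, 0 genes were called. By title, dyw2 homozygous replicate 2 had a mitochondrial share of 2.87% beside 3.01% and 2.84% in the other dyw2 homozygous libraries, a plastid share of 31.1% beside 26.6% and 32.5%, and a mean log2 CPM of nuclear photosynthesis genes of 7.93 beside 7.42 and 8.19. For nuwa homozygous replicate 3 these were 0.587% beside 0.490% and 0.538%, 60.6% beside 66.9% and 60.4%, and 10.51 beside 10.9 and 10.8. On these 3 measures both disputed libraries lie near the others of the group in their titles and far from the group in their genotype fields. Other measures set nuwa homozygous replicate 3 apart from both groups. Its flower bud score was 2.07 beside -1.42 and -1.95 in nuwa homozygous and -1.47, -0.75 and -0.39 in dyw2 homozygous libraries. Its mean log2 CPM of late pollen markers was 0.92 beside -4.28 and -3.98 in nuwa homozygous and -4.29, -4.07 and -4.56 in dyw2 homozygous ones.

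The difference was widest for the genes with opposite directions, at 11.4 for CDEF1, 10.3 for GLYI4, 9.58 for GOX3, 9.36 for AT1G60740 and 5.90 for AT2G33830. Among stress genes it was 5.10 for AT2G04050, 5.06 for UGT74E2, 4.17 for AT2G21640, 4.13 for AT2G41730, 2.1 for AOX1A and 1.67 for AT5G51440, all higher in both lines. Among chaperones, proteases and import genes it was 2.09 for MTHSC70-2, 2.06 for mtHsc70-1, 1.66 for LON1 and 0.80 for TIM10.

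For genes of organelle expression the difference was 2.38 for MORF4, 2.26 for PMH1, 2.23 for AT5G14580, 1.35 for AT5G15700, 1.25 for MORF1, 1.08 for AT1G78930, 0.91 for PMH2 and 0.81 for MGP3. BSM had -0.57, a larger rise in nuwa. The mitochondrial models ATMG00630, ATMG01240 and ATMG01110 had 3.30, 2.93 and 2.22. PARP2 had 2.47, EMB2788 1.81 and AT3G49320 0.70. RBCS1A had -3.37 and KCS12 -2.68, larger falls in dyw2. A gap test for a single outlying library was not run, since each group holds 3 libraries, and nuwa homozygous replicate 3 is described by its values in the results above.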

How the results depend on the processing

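The counts of calls moved by over 1.5 times with some designs and left-out libraries. The pooled test called 3404 genes higher and 3268 lower, 1788 and 1862 without both disputed libraries, 2286 and 1081 with lines from the genotype field, 4937 and 6485 as the average of both lines in the 4-group model, and 7 and 0 with the flower bud covariate. Leaving out 1 library gave 1899 to 4419 higher and 1429 to 4793 lower genes. One-way genes then numbered 1214 to 2532 and 1128 to 2429 (fewer libraries make the rule easier to meet). Thinned to the shallowest library they were 924 higher and 891 lower, of which 714 and 595 are among the 1200 and 1263 at full depth. They were 2166 lower without both disputed libraries, and 805 lower with the genotype field. The nuwa line alone gave 89 to 494 higher and 5 to 1241 lower genes, the extremes without nuwa homozygous replicate 2 and replicate 3. With the genotype field the difference between lines was called in 0 genes in either direction (edgeR, 325 and 84 at an unadjusted p under 0.05). The plastid share ranged from -16.85 to -14.92 points, with exact p from 0.015 to 0.07. With the flower bud covariate PPME1 was at 0.33, ATA27 at 0.20, AP3 at 0.61 and XTH9 at 0.027, reversed and not called. The causes were not tested. Same-numbered replicates correlated from -0.01 to 0.17 in their deviations, and differently numbered ones from -0.24 to 0.18. No pairing by number was seen, but so few correlations cannot exclude it. With a replicate block 1145 and 869 genes were called. With the flower bud covariate no list or family kept a call except the stress list, with 1, although several medians moved little. DESeq2 called 34 photosynthesis genes lower against 7. The median of all genes was -0.06 in the main scaling and between -0.04 and -0.03 in the others. Depth is lowest in dyw2 homozygous libraries, where low genes are least certain.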
